A study of Homo sapiens with 30 samples.

Results

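The RNAs of snoRNA host genes were followed across 30 RNA-seq libraries of human H1299 cells, a lung carcinoma line without endogenous p53. The members are every row of the count table whose symbol is SNHG followed by digits, plus *GAS5*, *ZFAS1*, *EPB41L4A-AS1* and *DANCR*, which gave 31 genes of the 39359 in the table. All 31 are annotated as long non-coding RNAs. A total of 30 members entered the tests, and *SNHG14*, with between 0 and 4 counts in every library, was removed by the filter on low counts.

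A snoRNA host gene is transcribed, spliced and exported like other genes, but its introns hold small nucleolar RNAs. The box C/D snoRNAs guide 2′-O-methylation of ribosomal RNA and the box H/ACA snoRNAs guide its pseudouridylation, and both are released from the excised intron and carried in particles with fibrillarin or dyskerin. The spliced host RNA itself usually codes for no protein, and several hosts, *GAS5* among them, start with an oligopyrimidine tract, bind ribosomes and are degraded by nonsense-mediated decay. *GAS5* was named for its rise in growth-arrested cells, which makes the class of interest where p53, a regulator of growth arrest, is expressed.

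Cells were transiently transfected by lipofection with a vector that carries GFP alone (pGFP), or GFP together with wild type p53, with the RW mutant p53, in which arginine is replaced by tryptophan in the DNA binding domain, or with p53 that holds a single O6-methylguanine in the template strand at that codon (p53 O6-meG). The last group, p53 TM (transcriptional mutagenesis), received the O6-meG vector after O6-benzylguanine at 10 µM, which inactivates the repair protein AGT. Both reading frames were driven by Tet-responsive promoters, GFP positive cells were sorted at 6 h or 24 h, and each of the 10 groups holds 3 biological replicates of this 1 cell line. All cells, the pGFP controls included, were lipofected and sorted, and expression was transient and from a plasmid.

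The libraries held between 32302699 and 71950532 counts, with a median of 44424643, and the 31 members took between 0.204% and 0.257% of them. Levels are in CPM, counts scaled to library size with TMM factors, and a gene was called at an adjusted P under 0.05 in the edgeR quasi-likelihood test over 20875 genes. *KRT8*, *KRT18* and *VIM* were abundant in every library, whereas the keratin *KRT19* lay between 0 and 0.165 CPM. The lung lineage genes *NKX2-1*, *NAPSA* and *SFTPB* did not pass 1.2 CPM in any library. The 3 markers of leukocytes (*PTPRC*), endothelium (*PECAM1*) and fibroblasts (*DCN*) summed to between 0.284 and 1.48 CPM. Every 24 h library of a group lay above its 6 h libraries for this sum.

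For replicate 2 of both p53 O6-meG and p53 TM at 6 h, the opening of the title and its bracketed end disagree on the group. The bracketed end and the genotype label, which match each other, set the group here. *CDKN1A*, the p21 gene and a direct p53 target, lay at 50.04 CPM in the library labelled p53 O6-meG and at 249 CPM in the library labelled p53 TM, whereas the other replicates of these groups at 6 h lay at 261 and 268 CPM for p53 O6-meG and at 57.7 and 65.8 CPM for p53 TM. The values therefore go against the labels, and the counts of members for these 2 groups at 6 h are given as labelled, with the other grouping, and without both.

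The member genes lie on many chromosomes and hold snoRNAs of both classes. GENCODE v44 (hg38) places 139 snoRNAs inside members, 84 of them in *SNHG14*, and at least 1 inside 29 members. GENCODE v44 places *GAS5* at chr1:173858559-173868882 on the minus strand with 0 snoRNAs inside, and RefSeq places 11 in its own *GAS5* gene. Because transcripts that keep an intron are part of the annotation, many of these snoRNAs touch an annotated exon, and 17 members have exons that overlap exons of a gene on the other strand (*ZFAS1* with *ZNFX1*, for example). Whether the authors counted by strand is not given in the sources used here, so for these 17, which include *GAS5*, *SNHG12*, *SNHG16*, *SNHG29*, *ZFAS1*, *EPB41L4A-AS1* and *DANCR*, reads of the partner cannot be told apart within the shared bases. These are few in *SNHG12* (8 of 4266 exon bases) and *GAS5* (250 of 4932). They are many in *EPB41L4A-AS1* (2200 of 4293), *ZFAS1* (2781 of 8315) and *SNHG16* (1648 of 5776). *SNHG1*, *SNHG3*, *SNHG11*, *SNHG32*, *SNHG15* and *SNHG17* are among the 14 members free of such overlap. On the same strand, however, exons of *SNHG3* overlap those of *RCC1*, and exons of *SNHG32* those of a gene without a symbol. *DANCR*, *SNHG4*, *SNHG5*, *SNHG14*, *SNHG20*, *SNHG21* and *SNHG28* overlap genes on the same strand too.

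The bases around the RefSeq start of the members called in the comparison of wild type p53 with pGFP show how the annotated starts differ within the class. RefSeq (GRCh38.p14) gives a promoter for 27 of the 31 members, and the windows below run from 15 bases before the annotated start to 25 bases from it on. Capitals mark the unbroken run of C and T that begins with a C at the start, the letters a terminal oligopyrimidine tract would have. *SNHG12*, *ZFAS1* and *SNHG32* carry such a run of at least 5 bases, *SNHG1*, shown as the classic host of C/D snoRNAs, carries 3, and *GAS5*, *SNHG16*, *SNHG29*, *SNHG3* and *SNHG11* have no C at the annotated base. For *GAS5* and *SNHG3* the whole window lies upstream of the gene as GENCODE v44 has it, so it does not show the start given there.
SNHG12 (chr1:28581849-28581888, minus strand): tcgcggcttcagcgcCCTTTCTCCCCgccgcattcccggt
ZFAS1 (chr20:49278627-49278666, plus strand): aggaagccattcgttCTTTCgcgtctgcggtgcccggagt
SNHG32 (chr6:31834901-31834940, plus strand): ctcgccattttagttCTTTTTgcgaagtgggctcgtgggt
SNHG1 (chr11:62855861-62855900, minus strand): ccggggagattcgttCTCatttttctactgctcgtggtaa
GAS5 (chr1:173869021-173869060, minus strand): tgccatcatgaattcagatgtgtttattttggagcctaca
SNHG16 (chr17:76557749-76557788, plus strand): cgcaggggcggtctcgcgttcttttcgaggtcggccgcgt
SNHG29 (chr17:16438972-16439011, plus strand): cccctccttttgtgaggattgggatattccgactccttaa
SNHG3 (chr1:28505928-28505967, plus strand): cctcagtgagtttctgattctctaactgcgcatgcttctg
SNHG11 (chr20:38446639-38446678, plus strand): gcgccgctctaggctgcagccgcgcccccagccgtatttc

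A start of C followed by 4 bases that are each C or T was found in 6 of the 27 member promoters (22.2%), against 4.07% of the 35116 promoters in the table. The other 3 are *SNHG4*, *SNHG5* and *SNHG19*. The search used the transcribed strand and the annotated first base only, so a gene that starts elsewhere is missed, and no match says only that these letters are not there. The p53 half-site consensus, searched on both strands of the 300 promoter bases, was found in 2 of the 27 (7.41%), *ZFAS1* and *SNHG28*, against 6.63% of all promoters. The *ZFAS1* match is shown in capitals because *ZFAS1* is a member called below. The match lies upstream of the RefSeq start, but inside the gene as GENCODE v44 has it (chr20:49278178-49299600).
ZFAS1 upstream (chr20:49278414-49278453, plus strand): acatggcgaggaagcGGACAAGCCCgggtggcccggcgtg

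The levels of the members spanned several orders of magnitude. On the RPKM scale, CPM divided by the length of the canonical transcript in kilobases, *SNHG29* (host of SNORD49A, SNORD49B and SNORD65) had the highest level in pGFP cells at 6 h, 1028 ± 42.9 RPKM (SD, n = 3). *SNHG16*, which hosts the SNORD1 family, had 697 ± 15.3 RPKM and *GAS5* 341 ± 4.61 RPKM. At the other end of the members tested *SNHG28* had 0.0339 ± 0.0137 RPKM.

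The order at the top depends on the length used. Over the union of all annotated exons *SNHG32* came first, at 80.5 ± 5.05 RPKM, and *SNHG29* ranked 5, at 50.9 ± 2.13 RPKM. By counts, 5 members (*SNHG29*, *SNHG16*, *SNHG5*, *GAS5* and *SNHG1*) made up 64.7% of the summed CPM in pGFP cells at 6 h, whereas *SNHG22*, *SNHG27* and *SNHG28* had at most 34 counts in any library. Fold changes of these 3 are thus imprecise.

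The summed level of the members was lower at 24 h than at 6 h. It was 2533 ± 36.4 CPM (SD, n = 3) in pGFP cells at 6 h and 1922 ± 56.0 CPM at 24 h. With wild type p53 it was 2365 ± 31.6 CPM at 6 h, below each pGFP library of that time, and 2186 ± 114 CPM at 24 h, above each pGFP library of that time. The TMM factors were between 0.894 and 0.981 at 6 h and between 1.003 and 1.163 at 24 h. As a share of all counts, without these factors, the members took 0.244% to 0.249% in pGFP cells at 6 h and 0.208% to 0.219% at 24 h. With wild type p53 the share was 0.213% to 0.220% at 6 h and 0.213% to 0.234% at 24 h. By share, wild type p53 thus overlapped pGFP at 24 h but not at 6 h. The sum is given as a description, since a few abundant members set it.

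**Figure D1:**
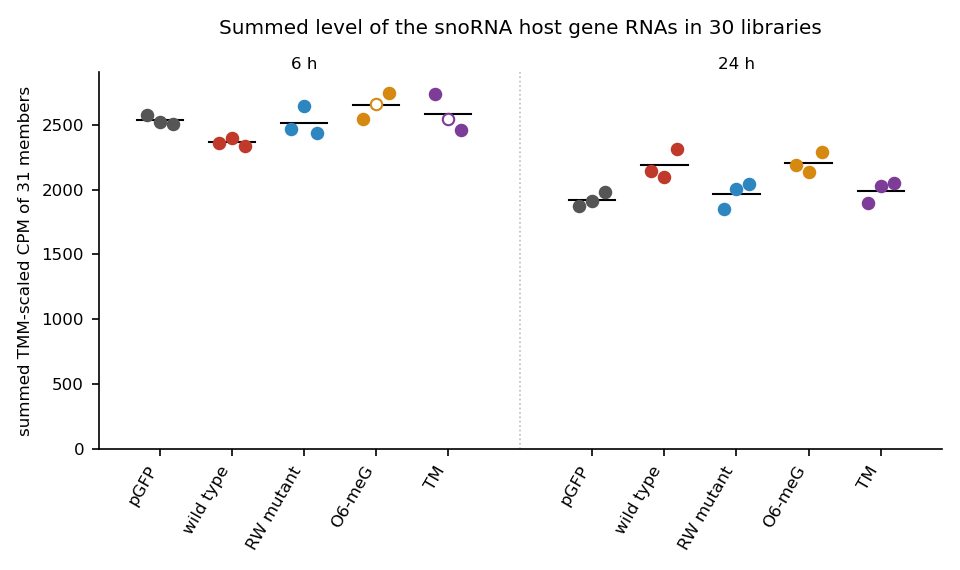
Summed TMM-scaled CPM of the 31 members (vertical axis, linear from 0) in each of the 30 libraries, grouped by vector and time on the horizontal axis. Points are libraries, black lines are group means, and open points are the 2 libraries whose titles conflict. The wild type p53 libraries lie at 2335 to 2398 CPM at 6 h, under the pGFP range of 2502 to 2573, and at 2099 to 2315 CPM at 24 h, over the pGFP range of 1873 to 1983. As a share of all counts, without TMM factors, the wild type p53 and pGFP ranges at 24 h overlap.

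The change between times in pGFP cells was the broadest in the class. Of the 30 members tested, 19 fell and 1 rose from 6 h to 24 h, against 21.8% and 18.4% of all genes called lower and higher. The median log2 fold change of the members was -0.29, against 0.00248 over all genes, and in 22 members every 24 h library lay below every 6 h library, which holds for 29.5% of all genes. The 2 times were sorted separately, and time cannot be told apart from the handling of each harvest. The sum of the 3 markers of other cell types was higher at the later time (0.284 to 0.489 CPM in the pGFP libraries at 6 h and 0.750 to 1.17 CPM at 24 h). *PTPRC* added at most 0.0227 CPM to it in these libraries. The part of these markers in the result was not tested. In sorted pools, less of an RNA in each cell and fewer cells that hold it cannot be told apart either.

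*SNHG3*, the host of the H/ACA snoRNAs SNORA73A and SNORA73B, read 158, 180 and 175 CPM in the pGFP libraries at 6 h and 96.2, 83.5 and 90.0 CPM at 24 h. Its log2 fold change was -0.93 ± 0.10 (SE) with an adjusted P of 1.16e-07 in edgeR's quasi-likelihood test. All 24 h libraries were far below all 6 h libraries. The level decreased by 47.4%, close to the 2-fold limit that the study set for a differentially expressed gene (DEG). No member reached that limit in pGFP cells, whereas 9.67% of all genes did.

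*SNHG1*, whose introns hold SNORD22 and the SNORD25 to SNORD31 series, read 251, 263 and 245 CPM at 6 h and 156, 146 and 155 CPM at 24 h. The log2 fold change was -0.73 ± 0.10 (adjusted P = 1.59e-06). *SNHG12*, the host of SNORD99 and of several H/ACA snoRNAs, read 36.8, 34.7 and 36.8 CPM at 6 h and 22.04, 21.6 and 21.6 CPM at 24 h (-0.73 ± 0.12, adjusted P = 4.23e-05). In both, the groups were well apart and the replicates within a group close.

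*SNHG16* fell in a similar way, from 349, 353 and 339 CPM to 204, 211 and 235 CPM (log2 fold change -0.68 ± 0.08, adjusted P = 1.30e-07). *GAS5* fell less, from 258, 265 and 262 CPM to 206, 223 and 226 CPM (-0.26 ± 0.07, adjusted P = 0.00296). *DANCR*, the host of SNORA26 and named for its action against differentiation, read 23.4, 24.7 and 22.4 CPM at 6 h and 16.4, 17.8 and 17.2 CPM at 24 h (-0.45 ± 0.08, adjusted P = 0.000103). None of the 3 overlapped between times.

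*EPB41L4A-AS1*, which holds SNORA13, fell from 23.1, 25.3 and 22.3 CPM to 20.5, 19.1 and 20.5 CPM (-0.23 ± 0.09, adjusted P = 0.0467), a change close to the threshold. *ZFAS1* read 57.4, 55.9 and 54.1 CPM at 6 h and 51.0, 47.9 and 50.3 CPM at 24 h, and did not pass the test (-0.17 ± 0.08, adjusted P = 0.0834). With the replicate number as a block within each time, the edgeR adjusted P of *ZFAS1* was 0.0478. Such a block removes the spread between replicates on which a comparison of times rests, so this value is not taken as a call. The host that rose was *SNHG31*, from 2.54, 2.09 and 2.36 CPM to 3.33, 3.07 and 3.34 CPM (0.47 ± 0.14, adjusted P = 0.00915).

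The cells with RW mutant p53 are a separate set of libraries for the same change. In them 15 members fell and 1 rose, against 21.1% and 18.1% of all genes, with a median log2 fold change of -0.23. *SNHG3* fell from 158, 169 and 179 CPM to 90.5, 78.4 and 84.1 CPM, a log2 fold change of -1.0 ± 0.10 (adjusted P = 3.85e-08) at the 2-fold limit, which 9.37% of all genes passed. *SNHG1* (-0.67 ± 0.10), *SNHG16* (-0.70 ± 0.08) and *SNHG12* (-0.57 ± 0.12) fell as well. *ZFAS1* passed in these libraries (-0.26 ± 0.08, adjusted P = 0.00725), and the member that rose was *SNHG25* (0.62 ± 0.23, adjusted P = 0.0359), not *SNHG31*.

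**Figure D2:**
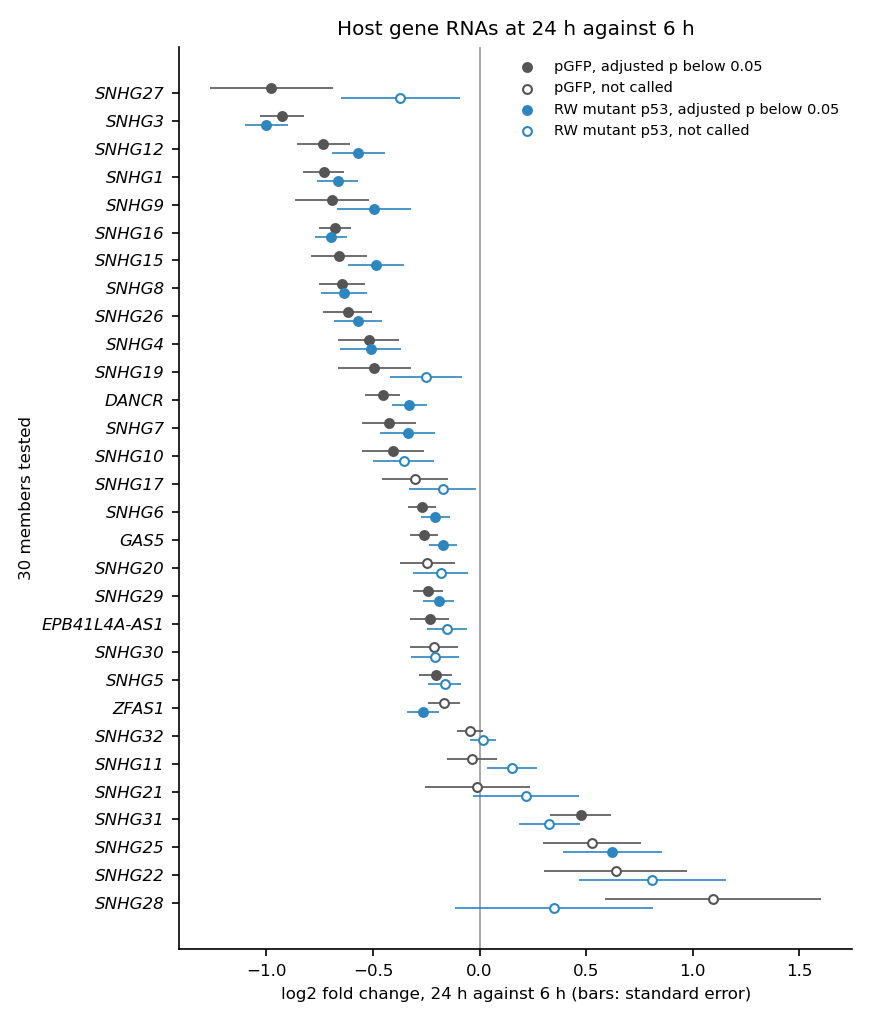
Log2 fold change from 6 h to 24 h (horizontal axis) of the 30 members tested (vertical axis, ordered by the value in pGFP cells), in pGFP cells (grey) and in RW mutant p53 cells (blue). Points are estimates, bars are standard errors, and filled points have an adjusted P under 0.05. Filled points lie left of 0 for 19 members in pGFP and 15 in RW mutant cells, and right of 0 for 1 member in each.

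A few members were lower with wild type p53 at 6 h. Against pGFP, 3 of the 30 fell and 0 rose, against 1.11% of all genes called lower and 7.64% called higher. The members' median log2 fold change was -0.17, against 0.02 over all genes, and 26 of 30 lay below 0, as did 45.6% of all genes. In 12 members every wild type p53 library lay below every pGFP library, which was the case for 11.8% of all genes. *CDKN1A* (2.67 ± 0.45) and *MDM2* (2.75 ± 0.39), both p53 targets, rose in the same libraries.

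*SNHG3* read 127, 130 and 136 CPM with wild type p53 and 158, 180 and 175 CPM with pGFP at 6 h. The groups were apart, and the log2 fold change was -0.38 ± 0.10 (adjusted P = 0.0141). *SNHG11*, the host of SNORA60, read 11.6, 11.0 and 9.83 CPM against 15.7, 13.1 and 13.1 CPM (-0.37 ± 0.12, adjusted P = 0.0493). *GAS5* read 217, 224 and 234 CPM against 258, 265 and 262 CPM (-0.22 ± 0.07, adjusted P = 0.0389), with no overlap.

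None of the 3 calls held in every leave-out. Without any 1 of the 6 libraries at most 1 member was still called, and without replicate 2 or replicate 3 of pGFP the count was 0. Neither *GAS5* nor *SNHG11* was called without any 1 of the 6 libraries, and *SNHG3* was lost without replicate 1 of wild type p53 as well. Over the alternatives that leave out 1 library, the log2 fold change of *GAS5* nevertheless stayed between -0.25 and -0.19. Against RW mutant p53 in place of pGFP, *SNHG3* was the 1 member called lower (-0.36 ± 0.10, adjusted P = 0.0216), against 0.949% of all genes.

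Other members had values below 0 that did not pass. *EPB41L4A-AS1* read 19.4, 20.1 and 19.2 CPM against 23.1, 25.3 and 22.3 CPM (-0.27 ± 0.09, adjusted P = 0.0779), and *SNHG1* 208, 229 and 203 CPM against 251, 263 and 245 CPM (-0.24 ± 0.10, adjusted P = 0.134). *SNHG12* read 27.5, 29.2 and 30.6 CPM against 36.8, 34.7 and 36.8 CPM (-0.31 ± 0.12, adjusted P = 0.137). The groups did not overlap in any of these 3. *EPB41L4A-AS1* was called with the other grouping of the 2 conflicting libraries (adjusted P = 0.0252) and without both (adjusted P = 0.0337). These libraries enter through the estimate of the spread, which all groups share.

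*ZFAS1* read 55.0, 50.5 and 53.1 CPM with wild type p53 at 6 h and *DANCR* 21.9, 23.5 and 22.2 CPM. *ZFAS1* (-0.08 ± 0.08), *DANCR* (-0.06 ± 0.08), *SNHG29* (-0.02 ± 0.07) and *SNHG32* (-0.00450 ± 0.0620) overlapped between the groups at 6 h. *SNHG16* had a value above 0 (0.07 ± 0.07). The rare *SNHG27* and *SNHG28* had the most extreme estimates, -0.77 ± 0.27 and 1.29 ± 0.48, on at most 27 counts a library, and neither passed (adjusted P = 0.0829 and 0.108).

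**Figure D3:**
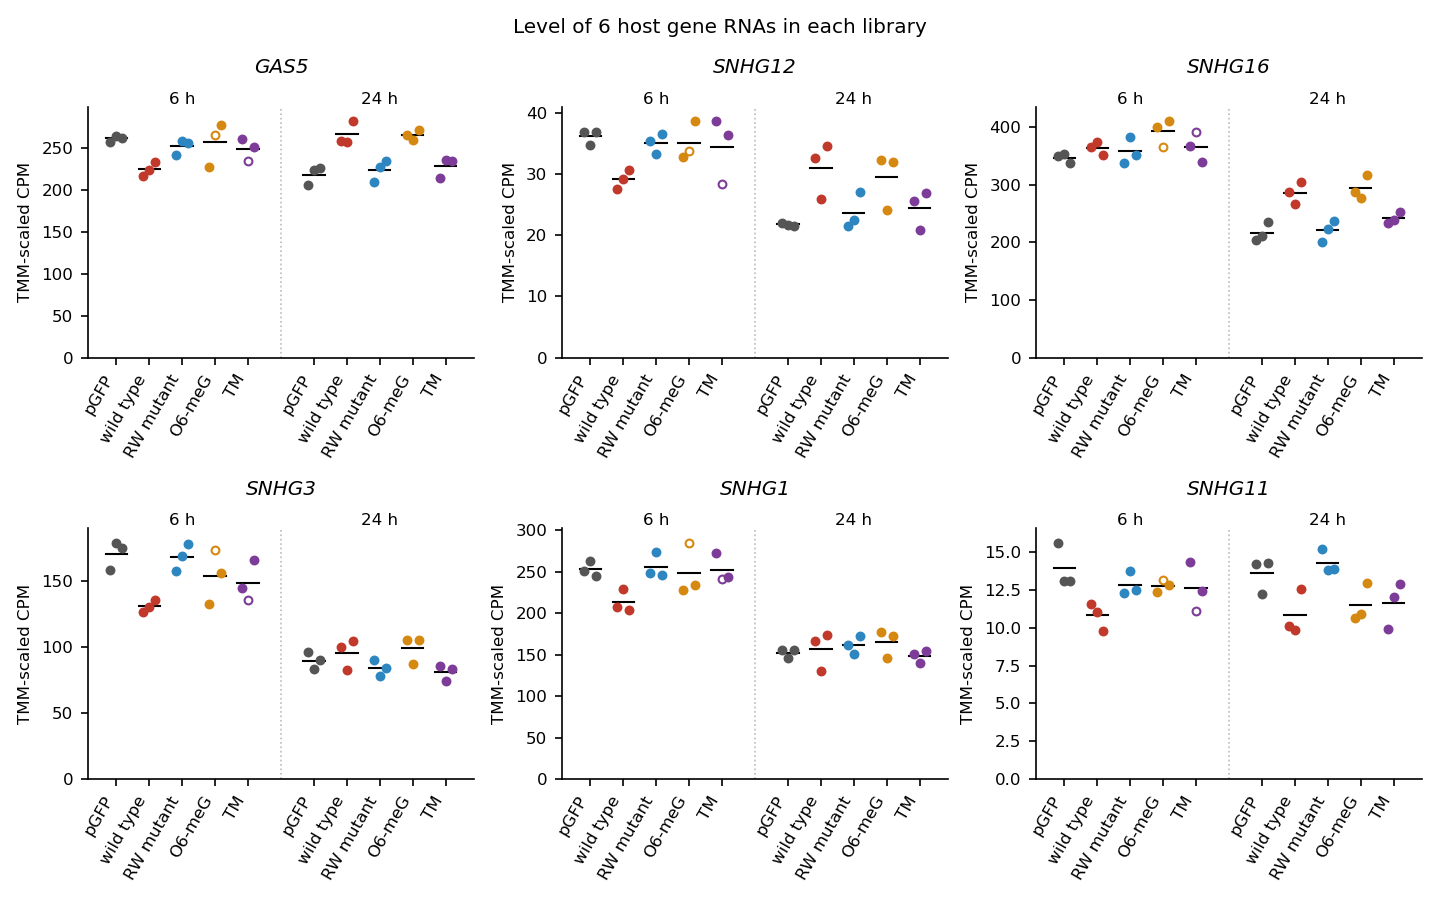
TMM-scaled CPM (vertical axes, linear from 0) of *GAS5*, *SNHG12*, *SNHG16*, *SNHG3*, *SNHG1* and *SNHG11* in each library, grouped by vector and time on the horizontal axis. Points are libraries, black lines are group means, and open points are the 2 libraries whose titles conflict. *GAS5* and *SNHG12* lie lower with wild type p53 than with pGFP at 6 h and higher at 24 h, while *SNHG11* lies lower at both times, with overlap at 24 h.

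At 24 h the direction of most calls was the opposite. With wild type p53, 6 of 30 members rose and 1 fell against pGFP, against 20.3% and 14.6% of all genes, so the share of members that rose was close to the background and the share that fell under it. The median log2 fold change was 0.13, against 0.00639 over all genes, and 24 of 30 lay above 0, as did 50.6% of all genes. No member reached 2-fold, whereas 11.1% of all genes did. With the replicate number as a block, 9 members rose and 2 fell (25.9% and 21% of all genes), the additions being *SNHG6*, *SNHG7*, *SNHG28* and *SNHG30*. At 24 h same-numbered libraries deviated together, so blocked counts are given beside those of the fit without a block. Overlap between groups is judged over all libraries, not within pairs.

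*SNHG16* read 287, 267 and 305 CPM with wild type p53 and 204, 211 and 235 CPM with pGFP. The groups were clearly apart, with a log2 fold change of 0.40 ± 0.08 (adjusted P = 0.000117), and the call held under each alternative run. *SNHG12* read 32.6, 25.9 and 34.5 CPM against 22.04, 21.6 and 21.6 CPM (0.51 ± 0.12, adjusted P = 0.00197). Replicate 2 of wild type p53 was the lowest of its group but still above pGFP.

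*GAS5* read 259, 257 and 282 CPM with wild type p53 and 206, 223 and 226 CPM with pGFP, a rise of 0.29 ± 0.07 on the log2 scale (adjusted P = 0.00138), or 21.9%. With no filter beyond 1 count its adjusted P was 0.11. *ZFAS1* read 63.6, 54.1 and 58.7 CPM against 51.0, 47.9 and 50.3 CPM (0.24 ± 0.08, adjusted P = 0.0149). *SNHG32*, the host of SNORD48 and SNORD52, read 171, 161 and 167 CPM against 144, 136 and 142 CPM (0.24 ± 0.06, adjusted P = 0.00299). Each of the 3 was higher, in TMM-scaled CPM, in every wild type p53 library than in any pGFP library. The TMM factors at 24 h were 1.09 to 1.16 with pGFP and 1.01 to 1.04 with wild type p53. These separations and the size of each rise depend on those factors, and levels of single members without them are not given here.

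*SNHG29* read 414, 453 and 446 CPM against 363, 394 and 398 CPM, a difference of 0.18 ± 0.07 (adjusted P = 0.0459) that was lost without any 1 of the 6 libraries. *SNHG11* was the member that fell, with 10.1, 9.89 and 12.6 CPM against 14.3, 12.3 and 14.3 CPM (-0.32 ± 0.12, adjusted P = 0.0348). Its groups overlapped, although each wild type p53 library lay below the pGFP library of its number, and the call was lost without replicate 1 or 3 of pGFP and without replicate 1 or 2 of wild type p53. Without replicate 1 of wild type p53 the calls of *ZFAS1* and *SNHG32* were lost too and 3 members remained called, *GAS5*, *SNHG12* and *SNHG16*, and *ZFAS1* was also lost without replicate 2 of pGFP.

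Other hosts did not pass at 24 h. *SNHG3* read 100.3, 82.9 and 105 CPM against 96.2, 83.5 and 90.0 CPM (0.09 ± 0.10, adjusted P = 0.521) and *SNHG1* 167, 130 and 174 CPM against 156, 146 and 155 CPM (0.04 ± 0.10, adjusted P = 0.776). *DANCR*, with 17.8, 18.4 and 16.5 CPM (0.03 ± 0.08), and *EPB41L4A-AS1*, with 19.7, 17.4 and 21.1 CPM (-0.05 ± 0.09), overlapped between the groups as well. Against RW mutant p53 in place of pGFP, 5 members rose and 1 fell at 24 h (20.1% and 15.2% of all genes), *GAS5* (0.25 ± 0.07), *SNHG12* (0.39 ± 0.12), *SNHG16* (0.38 ± 0.07), *SNHG32* (0.20 ± 0.06), *ZFAS1* (0.25 ± 0.08) and, lower, *SNHG11* (-0.40 ± 0.12).

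The difference between the effects at the 2 times was itself tested, as the change of the wild type p53 effect from 6 h to 24 h. It passed for 2 of 30 members, both upwards, against 2.53% of all genes called in that direction. *SNHG12* changed by 0.82 ± 0.18 on the log2 scale (adjusted P = 0.00659) and *GAS5* by 0.50 ± 0.09 (adjusted P = 0.00242). For both, every wild type p53 library lay below every pGFP library at 6 h and above every one at 24 h.

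The median of this change over the members was 0.25, against -0.000664 over all genes, and 27 of 30 lay above 0, as did 49.9% of all genes. With the replicate number as a block 9 members passed (6.38% of all genes), namely *GAS5*, *SNHG1*, *SNHG3*, *SNHG7*, *SNHG12*, *SNHG15*, *SNHG16*, *SNHG32* and *ZFAS1*. At 6 h, whose libraries also enter this test, same-numbered libraries deviated together less closely than at 24 h (median r = 0.202 against 0.678). With RW mutant p53 in place of pGFP 4 passed (2.08% of all genes): *SNHG12* (0.66 ± 0.18), *SNHG3* (0.55 ± 0.14), *ZFAS1* (0.42 ± 0.11) and *GAS5* (0.42 ± 0.09). Without replicate 2 of wild type p53 at 24 h 4 passed, *GAS5*, *SNHG3*, *SNHG7* and *SNHG12*.

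**Figure D4:**
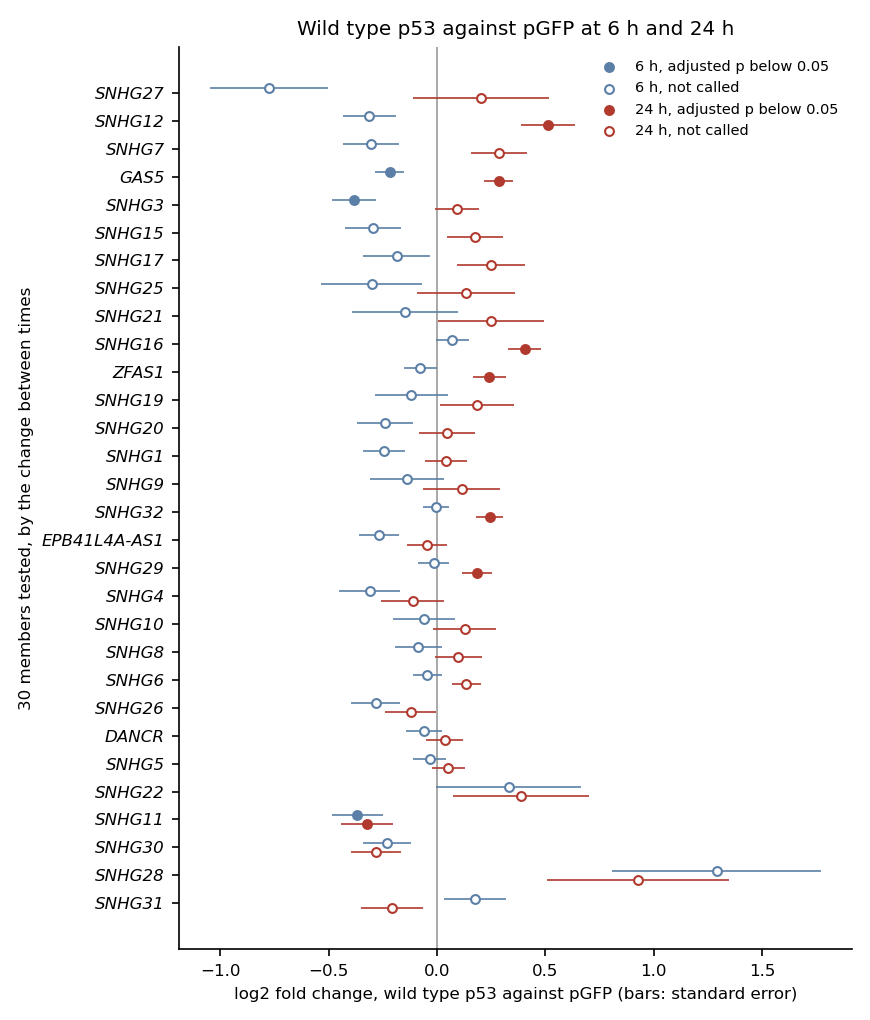
Log2 fold change of wild type p53 against pGFP (horizontal axis) at 6 h (blue) and 24 h (red) for the 30 members tested (vertical axis, ordered by the change between times). Points are estimates, bars are standard errors, and filled points have an adjusted P under 0.05. The 24 h value lies right of the 6 h value in 27 of 30 members, and the members whose change passed its own test are *SNHG12* (0.82) and *GAS5* (0.50).

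The RW mutant, with which *CDKN1A* did not pass the test (0.08 ± 0.43 at 6 h and -0.03 ± 0.43 at 24 h), changed no member by the test. Of 30 members 0 were called at either time, 0 had an unadjusted P under 0.05 (0.901% of all genes at 6 h and 0.843% at 24 h), and DESeq2's Wald test also called 0, against 0.00479% of all genes called at each time. Shares this far under the 0.05 level mean that the edgeR fit was conservative here, so 0 calls do not show that members were unchanged. With the replicate number as a block, 0 members had an unadjusted P under 0.05 at either time as well. *GAS5* read 242, 258 and 256 CPM at 6 h and 210, 227 and 234 CPM at 24 h, overlapping the pGFP values at both times. The members' median was -0.04 at 6 h and 0.03 at 24 h. At 6 h 23 of 30 lay below 0, as did 46.8% of all genes, and at 24 h 22 of 30 lay above 0, as did 54.3% of all genes.

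With p53 O6-meG at 6 h, 0 of 30 members were called, as labelled, with the other grouping and without both conflicting libraries, against 0.35% of all genes called as labelled. DESeq2 also called 0. Members with an unadjusted P under 0.05 numbered 2, both higher, as labelled (8.82% of all genes in that direction). They numbered 5 with the other grouping and 3 without both (20.1% and 17.1% of all genes, in either direction). *GAS5* read 228, 266 and 278 CPM against 258, 265 and 262 CPM in pGFP, and the groups overlapped as labelled.

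At 24 h, where no label is in doubt, p53 O6-meG raised 5 members and lowered 1, against 17.9% and 11.3% of all genes. *SNHG16* read 287, 277 and 318 CPM (0.44 ± 0.08 against pGFP, adjusted P = 5.46e-05). *SNHG12* read 32.3, 24.1 and 31.99 CPM (0.44 ± 0.13, adjusted P = 0.00912), and *GAS5* 265, 260 and 272 CPM (0.28 ± 0.07, adjusted P = 0.00193). All of these libraries lay above every pGFP library.

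*SNHG32* (0.22 ± 0.06) and *SNHG29* (0.21 ± 0.07) rose as well. With the replicate number as a block 5 rose and 2 fell (23.4% and 17.5% of all genes), the addition being *SNHG30*, lower (-0.25 ± 0.10, adjusted P = 0.0446). The member that fell without the block was *SNHG31*, with 2.12, 2.52 and 2.38 CPM against 3.33, 3.07 and 3.34 CPM in pGFP (-0.47 ± 0.14, adjusted P = 0.0146). This comparison shares its pGFP libraries with the one of wild type p53, in which *SNHG31* read 2.81, 3.05 and 2.56 CPM and did not pass (-0.21 ± 0.14, adjusted P = 0.279).

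With p53 TM at 6 h, 0 of 30 members were called against pGFP in the edgeR test, as labelled, with the other grouping and without both, against 0.0814% of all genes called as labelled. DESeq2 called 0. As labelled, 2 members had an unadjusted P under 0.05 (7.39% of all genes), *SNHG4* lower (-0.33 ± 0.14) and *SNHG32* higher (0.13 ± 0.06). With the other grouping and without both there were again 2, 1 in each direction (8% and 5.98% of all genes). *GAS5* read 261, 234 and 252 CPM as labelled. At 24 h *SNHG30* fell, with 4.85, 3.82 and 4.49 CPM against 5.76, 5.79 and 5.68 CPM (-0.39 ± 0.12, adjusted P = 0.0309), against 1.49% of all genes called lower and 7.71% higher. The call of *SNHG30*, the host of SNORD7, was lost without any 1 of the pGFP libraries and without replicate 2 or 3 of p53 TM. With the replicate number as a block 3 members passed (12.4% of all genes higher and 5.48% lower), *SNHG30* and *SNHG26* lower and *SNHG16* higher (0.16 ± 0.06, adjusted P = 0.0458).

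The comparison of p53 TM with wild type p53 sets the unrepaired lesion beside the intact gene, and O6-benzylguanine was given to the p53 TM cells only. At 6 h, as labelled, 0 of 30 members were called, against 0.0766% of all genes, and 5 had an unadjusted P under 0.05, all higher with p53 TM (4.72% of all genes). DESeq2 called 0. With the other grouping 5 members were higher (3.8% of all genes): *EPB41L4A-AS1* (0.33 ± 0.08, adjusted P = 0.00377), *SNHG1* (0.33 ± 0.09), *SNHG3* (0.30 ± 0.09), *ZFAS1* (0.22 ± 0.08) and *GAS5* (0.21 ± 0.07). Without both libraries 1 member was higher (2.77% of all genes), *EPB41L4A-AS1* (0.33 ± 0.09, adjusted P = 0.0138), which was also higher without replicate 2 of p53 TM alone. An unadjusted P under 0.05 was reached by 10 members in each of these alternatives, all higher (8.29% of all genes with the other grouping and 7.09% without both).

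The library labelled replicate 2 of p53 TM was the lowest of its group for *EPB41L4A-AS1*, with 19.6 CPM against 25.9 and 23.5 CPM. Wild type p53 had 19.4, 20.1 and 19.2 CPM. For *SNHG12* it read 28.3 CPM against 38.6 and 36.4 CPM, within the wild type p53 range of 27.5 to 30.6 CPM. The members' median difference at 6 h was 0.15 on the log2 scale as labelled, 0.17 with the other grouping and 0.15 without both.

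At 24 h 4 members were lower with p53 TM than with wild type p53 and 0 higher, against 10% and 8.46% of all genes. *GAS5* read 215, 236 and 235 CPM against 259, 257 and 282 CPM (-0.22 ± 0.07, adjusted P = 0.0219). *SNHG16* read 234, 239 and 252 CPM against 287, 267 and 305 CPM (-0.25 ± 0.07, adjusted P = 0.0231). In both, no library of one group reached the other.

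*SNHG15*, the host of SNORA9, read 22.1, 26.98 and 29.7 CPM against 29.3, 30.9 and 42.4 CPM (-0.38 ± 0.13, adjusted P = 0.0463). *SNHG17*, which hosts SNORA71 copies, read 24.3, 20.3 and 25.8 CPM against 30.4, 24.0 and 41.8 CPM (-0.45 ± 0.16, adjusted P = 0.0459). Both pairs of groups overlapped, although each p53 TM library lay below the wild type p53 library of its number, and replicate 3 of wild type p53 was well above the rest in both.

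With the replicate number as a block 9 members were lower (17.3% of all genes), the additions being *SNHG3*, *SNHG7*, *SNHG10*, *SNHG12* and *SNHG28*. Single libraries decided the unblocked count. It was 0 without replicate 3 of wild type p53, 2 without replicate 1 and 7 without replicate 2, and 1 without replicate 1 or replicate 2 of p53 TM. A fit of only these 2 groups called 0. *GAS5* was no longer called without replicate 1 or 3 of wild type p53 or replicate 1 of p53 TM, and *SNHG16* without any of these or replicate 2 of p53 TM. The median over the members was -0.12, and 26 of 30 lay below 0, as did 51.2% of all genes. Since the comparisons of p53 TM and of pGFP with wild type p53 share the wild type libraries, their values are given side by side only. At 24 h *GAS5* had a mean of 266 ± 13.9 CPM (SD, n = 3) with wild type p53, 228 ± 11.9 with p53 TM and 218 ± 10.8 with pGFP.

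**Figure D5:**
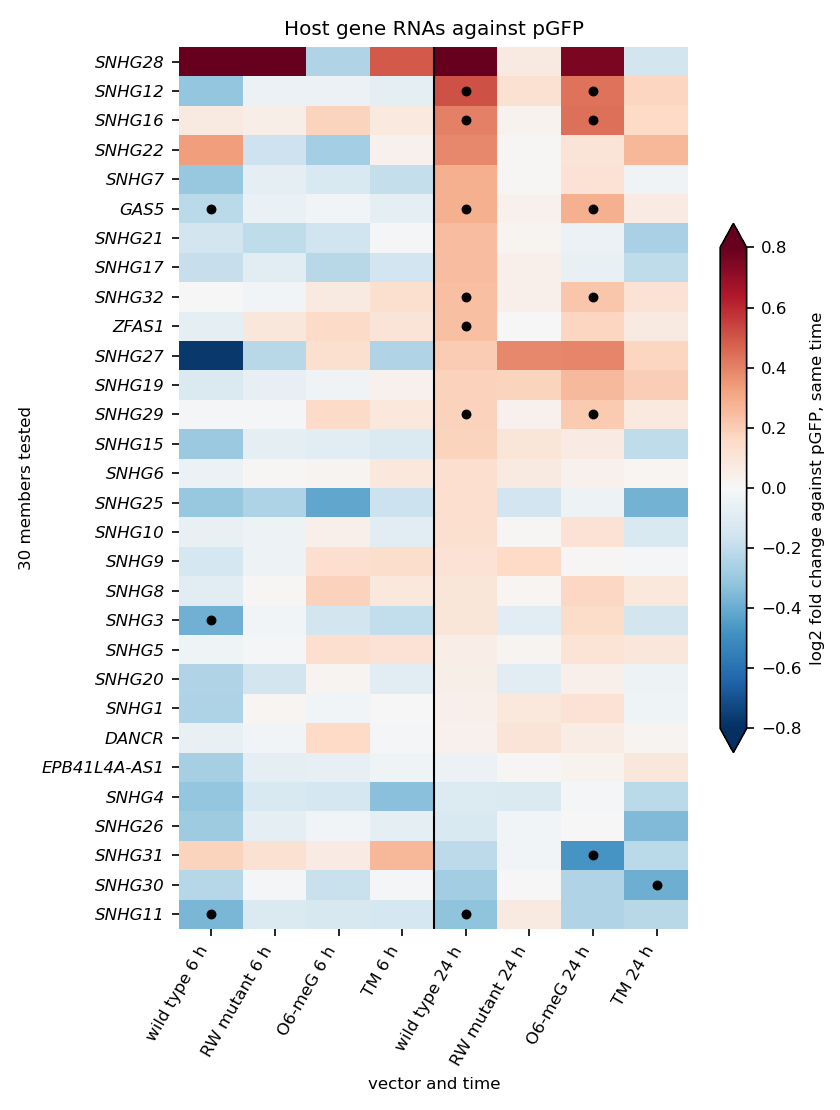
Log2 fold change (colour, cut at 0.8 on either side) of the 30 members tested (vertical axis, ordered by the value for wild type p53 at 24 h) for each vector against pGFP of the same time (horizontal axis, 6 h left and 24 h right of the line). Black dots mark an adjusted P under 0.05. Dots stand in the columns of wild type p53 (3 at 6 h and 7 at 24 h), p53 O6-meG at 24 h (6) and p53 TM at 24 h (1), and in none of RW mutant p53.

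The 6 members with a pyrimidine start had a median log2 fold change of 0.21 with wild type p53 at 24 h, with values between -0.11 and 0.51, and the other 20 members with a promoter and a test had 0.11, with values between -0.32 and 0.93. At 6 h the medians were -0.10 and -0.20, and for the fall in pGFP cells -0.35 and -0.28. The ranges of the 2 sets overlapped in each of these comparisons. No test was made of them.

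The snoRNAs inside the members are partly measured in the same table, as 21 rows, of which 20 were tested. Small RNAs are caught poorly by a library of this kind, and apart from SCARNA13 and SNORA73B no row passed 690 counts in any library. With wild type p53 at 6 h 2 rows were lower and 0 higher, against 1.11% and 7.64% of all genes. They were SNORA13 (in *EPB41L4A-AS1*, -0.79 ± 0.24) and SNORD12C (in *ZFAS1*, -0.76 ± 0.23). At 24 h 2 rows were higher and 0 lower, against 20.3% and 14.6% of all genes, SNORD99 (in *SNHG12*, 0.76 ± 0.25) and SNORD12B (in *ZFAS1*, 0.49 ± 0.17). The change of the wild type p53 effect between times passed for 1 row, SNORD12C (1.16 ± 0.33, adjusted P = 0.0369), against 2.53% of all genes called in that direction.

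The abundant SNORA73B row, inside *SNHG3*, did not pass the test that its host passed. It had 176 CPM in pGFP cells at 6 h and 157 CPM at 24 h (-0.16 ± 0.28, adjusted P = 0.685), with a 95% interval from -0.72 to 0.39, while the interval of *SNHG3* ran from -1.13 to -0.73. Over the 20 rows 2 rose and 1 fell in pGFP cells between times, shares under the 18.4% and 21.8% of all genes. SNORA71D (1.43 ± 0.39) and SNORA70I (1.73 ± 0.59) were higher and SNORD99 (-0.80 ± 0.24) lower. With p53 TM at 24 h SNORA26, inside *DANCR*, was the 1 row called lower than with pGFP (-1.06 ± 0.26, adjusted P = 0.0101), against 1.49% of all genes. It had 10 to 38 counts a library over the whole series, and *DANCR* was not lower (0.02 ± 0.08). How reads over both a host exon and a snoRNA were assigned is not given in the sources used here.

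Genes that work with these RNAs were taken from lists. The 8 core proteins of snoRNA particles, among them the methyltransferase fibrillarin (*FBL*) and the pseudouridine synthase dyskerin (*DKC1*), had 0 called by edgeR with wild type p53 at either time, and an unadjusted P under 0.05 in 0 at 6 h and 1 at 24 h (*NOP56*, 0.22 on the log2 scale). In pGFP cells 7 of the 8 fell from 6 h to 24 h, against 21.8% of all genes called lower, with *DKC1* at -1.12 ± 0.15 and *NOP56* at -0.99 ± 0.09. The list median was -0.45, against 0.00248 over all genes. Of 11 assembly factors 6 fell in the same comparison, against the same 21.8% of all genes, led by *NOLC1* (-1.16 ± 0.11), a nucleolar chaperone of snoRNA particles. With wild type p53 at 24 h 2 of the 11 rose, the cap hypermethylase *TGS1* (1.65 ± 0.21) and *SHQ1* (0.30 ± 0.07), and 2 fell, *RPAP3* (-0.51 ± 0.06) and *PIH1D1* (-0.17 ± 0.06), shares near the 20.3% and 14.6% of all genes.

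Nonsense-mediated decay, which removes spliced RNAs with early stop codons, was read through 10 genes. With wild type p53 2 rose at each time and 0 fell, *SMG6*, the endonuclease of the pathway (0.60 ± 0.17 at 6 h and 1.27 ± 0.18 at 24 h), and the helicase *UPF1* (0.44 ± 0.09 and 0.84 ± 0.10). Of all genes 7.64% rose at 6 h and 20.3% at 24 h, so the count at 24 h was at the background. In pGFP cells 1 rose and 4 fell between times, against 18.4% and 21.8% of all genes. Of 5 regulators of transcripts with an oligopyrimidine start, *EIF4EBP2* rose (0.26 ± 0.09) and *MTOR* fell (-0.25 ± 0.05) with wild type p53 at 24 h. These counts stand beside 20.3% and 14.6% of all genes, and 0 of the 5 were called at 6 h (0 at an unadjusted P under 0.05).

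Protein-coding genes that host snoRNAs give a comparison within the same arrangement of introns. Of 25, 0 rose and 2 fell with wild type p53 at 6 h, against 7.64% and 1.11% of all genes. The 2 were *EIF4A1* (-0.63 ± 0.16) and *EIF4A2* (-0.33 ± 0.10), both RNA helicases of translation initiation. The *EIF4A1* row was low, with a mean of 13.7 CPM in pGFP cells at 6 h against 381 CPM for *EIF4A2*. Overlap of the listed genes with other genes was not checked, so the row may not hold all reads of *EIF4A1*. At 24 h 5 rose and 0 fell, *WDR43* (0.73 ± 0.12), *EEF2* (0.35 ± 0.08), *RPS20* (0.27 ± 0.09), *RPL27A* and *RACK1*, against 20.3% of all genes called higher. Their median was 0.06 at 6 h and 0.18 at 24 h. In pGFP cells 11 of the 25 fell from 6 h to 24 h and 0 rose, against 21.8% and 18.4% of all genes, and the median was -0.22. *DKC1* and *NOP56* belong to this list and to the core particle list.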

How the data were processed

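RNA was taken from GFP sorted H1299 cells, and ribosome-depleted, stranded total RNA libraries were sequenced as single reads. The deposited counts are whole reads per gene, without normalization, made by the authors with STAR 2.5.3a on hg38 and featureCounts of Subread 1.5.2 on GENCODE v27. The authors' table of normalized values was not used. Whether strand was used is not given in the sources used here.

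Symbols were looked up by Ensembl identifier in a reference table of gene names (30404 of 39359 rows have one), and positions came from GENCODE v44 (38904 rows matched). These counts went into edgeR 4.0.16 under R 4.3.3. There filterByExpr by group kept 20875 genes, TMM normalization was applied, the 10 groups were fitted together, and quasi-likelihood P values took a Benjamini-Hochberg adjustment across the whole tested set. The functions were tested on simulated data. Standard errors come from the estimate and its F statistic, and 95% intervals take the normal quantile. Replicates within a group differed beyond counting noise (chi-square per degree of freedom of 6.13 to 47.8), so none was counted as a duplicate. In this fit P values rest on the spread between the 3 replicates of a group, pooled over all 10 groups. The libraries whose titles conflict are part of that pool.

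Same-numbered libraries of different groups deviated together at 24 h (30 of 30 pairs correlated above 0.1, median r = 0.678, over 10157 genes), and values with the replicate number as a block are given there where they change a call. At 6 h 23 of 30 such pairs did (median r = 0.202, from -0.687 to 0.694). Pairs with different numbers did so in 10 of 60 cases at 6 h (median r = -0.109) and in 13 of 60 at 24 h (median r = -0.457).

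The members named throughout are *GAS5*, *ZFAS1*, *EPB41L4A-AS1*, *DANCR*, *SNHG1* and those called with wild type p53, with others added where a result turns on them. The members and gene lists were chosen with earlier results of these data known. Alternatives were DESeq2's size factors, DESeq2 1.42.0, other filters, fits of only the groups compared, the block, both treatments of the conflicting libraries, and each library left out. RW mutant p53 as the control was added after values had been seen. The level of the transfected gene is not reported here.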

Additional observations from a re-analysis of the deposited data

Results flagged for a closer look

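The effect of wild type p53 against pGFP differed between 6 h and 24 h for 2 members in a test of the difference itself. *SNHG12* changed by 0.82 on the log2 scale (SE 0.18, edgeR adjusted P = 0.00659), from -0.31 at 6 h to 0.51 at 24 h. *GAS5* changed by 0.50 (SE 0.09, adjusted P = 0.00242), from -0.22 to 0.29. In both, the sign was negative against each pGFP library at 6 h and positive against each at 24 h, in 3 of 3 wild type p53 libraries per time. Of the exon bases, 8 of 4266 in *SNHG12* and 250 of 4932 in *GAS5* also lie in exons on the other strand.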

How the results depend on the processing

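Counts of members called are for edgeR with all 30 libraries unless said otherwise. The share of all genes called can move with the fit too. With wild type p53 at 24 h it went from 20.3% higher and 14.6% lower to 25.9% and 21% with the replicate block. Shares for some of the other fits are given in the Results, and a move in a count below is not by itself a result about the members. The cause of each move below was not tested, except that fewer libraries or other sets of genes enter by construction.

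Wild type p53 against pGFP at 6 h had 3 members called, 5 with DESeq2, 1 with no filter beyond 1 count, 8 with only the groups compared, 10 with the replicate block (1 higher, 9 lower), 1 with RW mutant p53 in place of pGFP, and 0 to 1 without 1 library. At 24 h it had 7, but 3 with no filter, 4 with only the groups compared, 11 with the replicate block and 3 to 7 without 1 library. For p53 O6-meG at 24 h, 6 became 3 with no filter, 3 with only the groups compared, 7 with the replicate block (5 higher, 2 lower) and 4 to 6 without 1 library. For p53 TM against pGFP at 24 h, 1 became 2 with DESeq2's size factors, with DESeq2, with at least 10 counts in every library and with the other grouping, 0 with no filter and with only the groups compared, 3 with the replicate block, and 0 to 1 without 1 library.

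For p53 TM against wild type p53 at 6 h, 0 became 1 with the replicate block, 5 with the other grouping, 1 without both conflicting libraries and 0 to 1 without 1 library. At 24 h, 4 became 0 with no filter and with only the groups compared, 9 with the replicate block, and 0 to 7 without 1 library. The change of the wild type p53 effect between times went from 2 to 4 with RW mutant p53 in place of pGFP, 6 with DESeq2, 1 with no filter, 5 with at least 10 counts in every library, 5 with only the groups compared, 9 with the replicate block, 5 with the other grouping, 4 without both conflicting libraries, and 2 to 4 without 1 library. The comparison of times in pGFP cells kept 16 to 24 members called, counted in either direction, under every alternative run. With the replicate block 22 were lower and 2 higher, but that block removes the spread between replicates on which a comparison of times rests. RW mutant p53 kept 0 at both times without 1 library, as did p53 O6-meG and p53 TM against pGFP at 6 h.

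Signs reversed in values near 0, none of them called. At 6 h *SNHG32* was 0.01553 with RW mutant p53 in place of pGFP and -0.04891 to 0.0423 without 1 library, and *SNHG29* -0.03635 to 0.02162 without 1 library. At 24 h *EPB41L4A-AS1* was -0.1107 to 0.02735 without 1 library. *DANCR* was -0.06617 with RW mutant p53, -0.04947 with no filter and -0.01382 to 0.07513 without 1 library. *SNHG1* was -0.03983 with RW mutant p53, -0.04172 with no filter and -0.04419 to 0.1628 without 1 library. Of 330 values for the 11 named members under the alternatives, 264 kept direction and side of the threshold, 43 lost a call, 10 gained one and 13 reversed. At 6 h same-numbered libraries deviated together less closely than at 24 h (median r = 0.202 against 0.678, with a lowest r of -0.687 at 6 h). The blocked count at 6 h is therefore given beside the count without a block and does not replace it.

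Members with at most 34 counts in any library (*SNHG22*, *SNHG27*, *SNHG28*) and most snoRNA rows are too shallow for changes of the size seen in the abundant hosts to be detectable.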
